A study of Mus musculus with 20 samples.

Results

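The translation initiation and elongation factors are the genes whose symbols begin with Eif1 to Eif6, or with Eef1 or Eef2, and 69 of the 55367 symbols in the count tables met that rule once the sex-linked Eif2s3x, Eif2s3y and Eif1ax and names ending in -ps were left out. The rule used names only and no measured value. Of the 69, 65 had enough reads to be among the 16598 genes tested, and the other 4 were Eif4a3l2 (16 counts over 20 libraries), Eif2c5 (3 counts), Eif4a3l1 and Eif4e1b (both listed at 0 in every library). Newborn C57BL/6J mice, with no transgene or deletion named in the labels, breathed 100% oxygen (hyperoxia) or 21% oxygen (room air) to postnatal day 4, nursed by dams that were moved daily between both atmospheres. RNA from the dissected left atrium and left ventricle gave 4 groups of 5 libraries, which were the hyperoxic atria, the room-air atria, the hyperoxic ventricles (numbered 1, 2, 4, 5 and 6) and the room-air ventricles. Each number stands for one mouse within its group, and the labels do not say whether an atrium and a ventricle of the same number came from the same mouse.

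Initiation begins when eIF2, bound to GTP, brings the initiator tRNA to the small ribosomal subunit together with eIF1, eIF1A, eIF3 and eIF5. The eIF4F complex (the cap-binding eIF4E, the scaffold eIF4G and the helicase eIF4A) recruits the mRNA, and eIF4E-binding proteins compete with eIF4G for eIF4E unless mTORC1 phosphorylates them. Kinases of the alpha subunit of eIF2 turn it into an inhibitor of its own exchange factor, eIF2B. Elongation then runs on eEF1A, which delivers aminoacyl-tRNAs, on the eEF1B subunits that recharge eEF1A with GTP, and on eEF2, which moves the ribosome and is inhibited by eEF2 kinase. The adult heart and skeletal muscle express a second eEF1A, the product of Eef1a2, that most other tissues lack.

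Library totals ran from 26510081 to 38244117 counts, and the 69 members took 1.64% to 1.69% of all counts in hyperoxic atria, 1.33% to 1.41% in room-air atria, 1.16% to 1.27% in hyperoxic ventricles and 1.07% to 1.28% in room-air ventricles. The atria were rich in atrial cardiomyocyte markers (summed level 26000 to 50200 CPM, counts scaled to library size, in hyperoxic atria and 18000 to 23100 CPM in room-air atria), which summed to 243 to 860 CPM in hyperoxic ventricles and 1030 to 1940 CPM in room-air ventricles, and ventricular markers were low in the atria (383 to 774 CPM hyperoxic, 472 to 902 CPM room air). 3 libraries, hyperoxic atria 2 and 4 and room-air ventricle 4, stood apart: over 11133 genes, their log2 level relative to their chamber's mean sloped down with log2 exon length by -0.289, -0.282 and -0.22, against -0.069 to 0.133 in the others, so that they leaned to short transcripts. Every room-air library, but of the hyperoxic ones only atrium 2 and ventricles 2 and 6, held more Y-linked than Xist counts, so that oxygen level and this property cannot be fully told apart. Summed endothelial markers were lower in all 5 hyperoxic atria (380 to 572 CPM) than in any room-air atrium (665 to 803 CPM), as were fibroblast markers (1510 to 2100 against 2940 to 3660 CPM). Summed smooth muscle (761 to 1170 against 482 to 693 CPM) and macrophage markers (123 to 189 against 93.1 to 105 CPM) were higher. By gene, under the test given below, all 5 endothelial markers were called lower, and of 5 fibroblast markers 4 were lower and 1 higher. Of 4 smooth muscle markers 2 were called higher and 1 lower (log2 differences -1.88 to 1.06), and of 4 macrophage markers 3 were higher. Their part in the results below was not tested, and in such whole-tissue RNA fewer cells of a type and less RNA per cell cannot be told apart.

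The promoters of several members share the sequence CACGTG, the E-box that MYC, USF and TFE family factors bind. In RefSeq windows of 250 bases before to 50 after a gene's start (GRCm38.p6), 14 of the 52 members with a window held it (26.9%), against 2187 of 27025 genes (8.09%). The word reads the same on both strands, and a match is only a description of the letters. Among members with a window it stood in 6 of the 29 that were higher in hyperoxic atria (20.7%), in 7 of the 19 that were not called (36.8%) and in Eef2k, which was lower. TGATGNAA, the core of a CHOP-ATF4 composite site, searched on both strands, stood in 1 of the 52 (1.92%, at another start of Eef2k) and in 1219 of the 27025 genes (4.51%). The windows of 7 members that the results turn on are shown 5′ to 3′ on the gene's strand, with the E-box in capitals. They set genes that rose beside Eef2k, Eef2 and Eif4g1, which were not called higher over all libraries. Eef2 and Eif4g1 were called higher without the 3 libraries that leaned to short transcripts and with the length slope as a covariate.
Eif4e, chr3:138527189-138527224, plus strand: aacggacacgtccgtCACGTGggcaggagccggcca
Eif4a1, chr11:69672592-69672627, minus strand: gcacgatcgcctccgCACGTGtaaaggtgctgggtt
Eif5a, chr11:69921440-69921475, minus strand: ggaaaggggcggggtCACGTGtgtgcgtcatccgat
Eef1akmt4, chr16:20611494-20611529, plus strand: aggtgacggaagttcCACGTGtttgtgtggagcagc
Eef2k, chr7:120842785-120842820, plus strand: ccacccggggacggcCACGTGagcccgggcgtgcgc
Eef2, chr10:81176573-81176608, plus strand: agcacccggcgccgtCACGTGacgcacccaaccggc
Eif4g1, chr16:20672658-20672693, plus strand: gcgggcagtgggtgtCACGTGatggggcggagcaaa

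In the left atrium, transcripts of most initiation and elongation factors were higher under hyperoxia. By edgeR's quasi-likelihood test, with Benjamini-Hochberg adjustment over all 16598 genes and a call at an adjusted p under 0.05, 39 of the 65 tested members rose and 2 fell, against 19.7% of all tested genes that rose and 24.2% that fell. The members' median log2 difference was 0.40, against -0.06 over all genes, and 48 of the 65 values were positive. Summed over the 69 members, the level was 15500 CPM at the median in hyperoxic atria (14400 to 17000) and 12700 CPM in room-air atria (12100 to 13100). All 5 hyperoxic atria lay above all 5 room-air atria for 30 members (13.6% of all tested genes did) and below them for 3 (19.3%), which were Eef2k, Eif4ebp2 and Eif3j2, named for that. The rise took in 11 of the 14 eIF3 subunits tested and 4 of the 5 eIF2B subunits. It also took in 4 of the 5 genes grouped with start codon factors and 4 of the 6 grouped with eEF1. These last include Eif1ad, a homologue of eIF1A, and Eef1e1, a scaffold of the multi-aminoacyl-tRNA synthetase complex. Of the called members, 4 changed 2-fold or more, Eef1akmt4, Eef1e1, Eif2b3 and Eif4ebp1. The share of all genes that did so was not counted. Without the 3 short-leaning libraries 37 members rose and 4 fell (17.1% and 21.9% of all genes did), 35 of the 37 being among the 39. With 2 covariates together, that length slope and the log2 ratio of Y-linked to Xist counts, 12 rose (all among the 39) and 4 fell, against 7.4% and 9% of all genes.

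**Figure D1:**
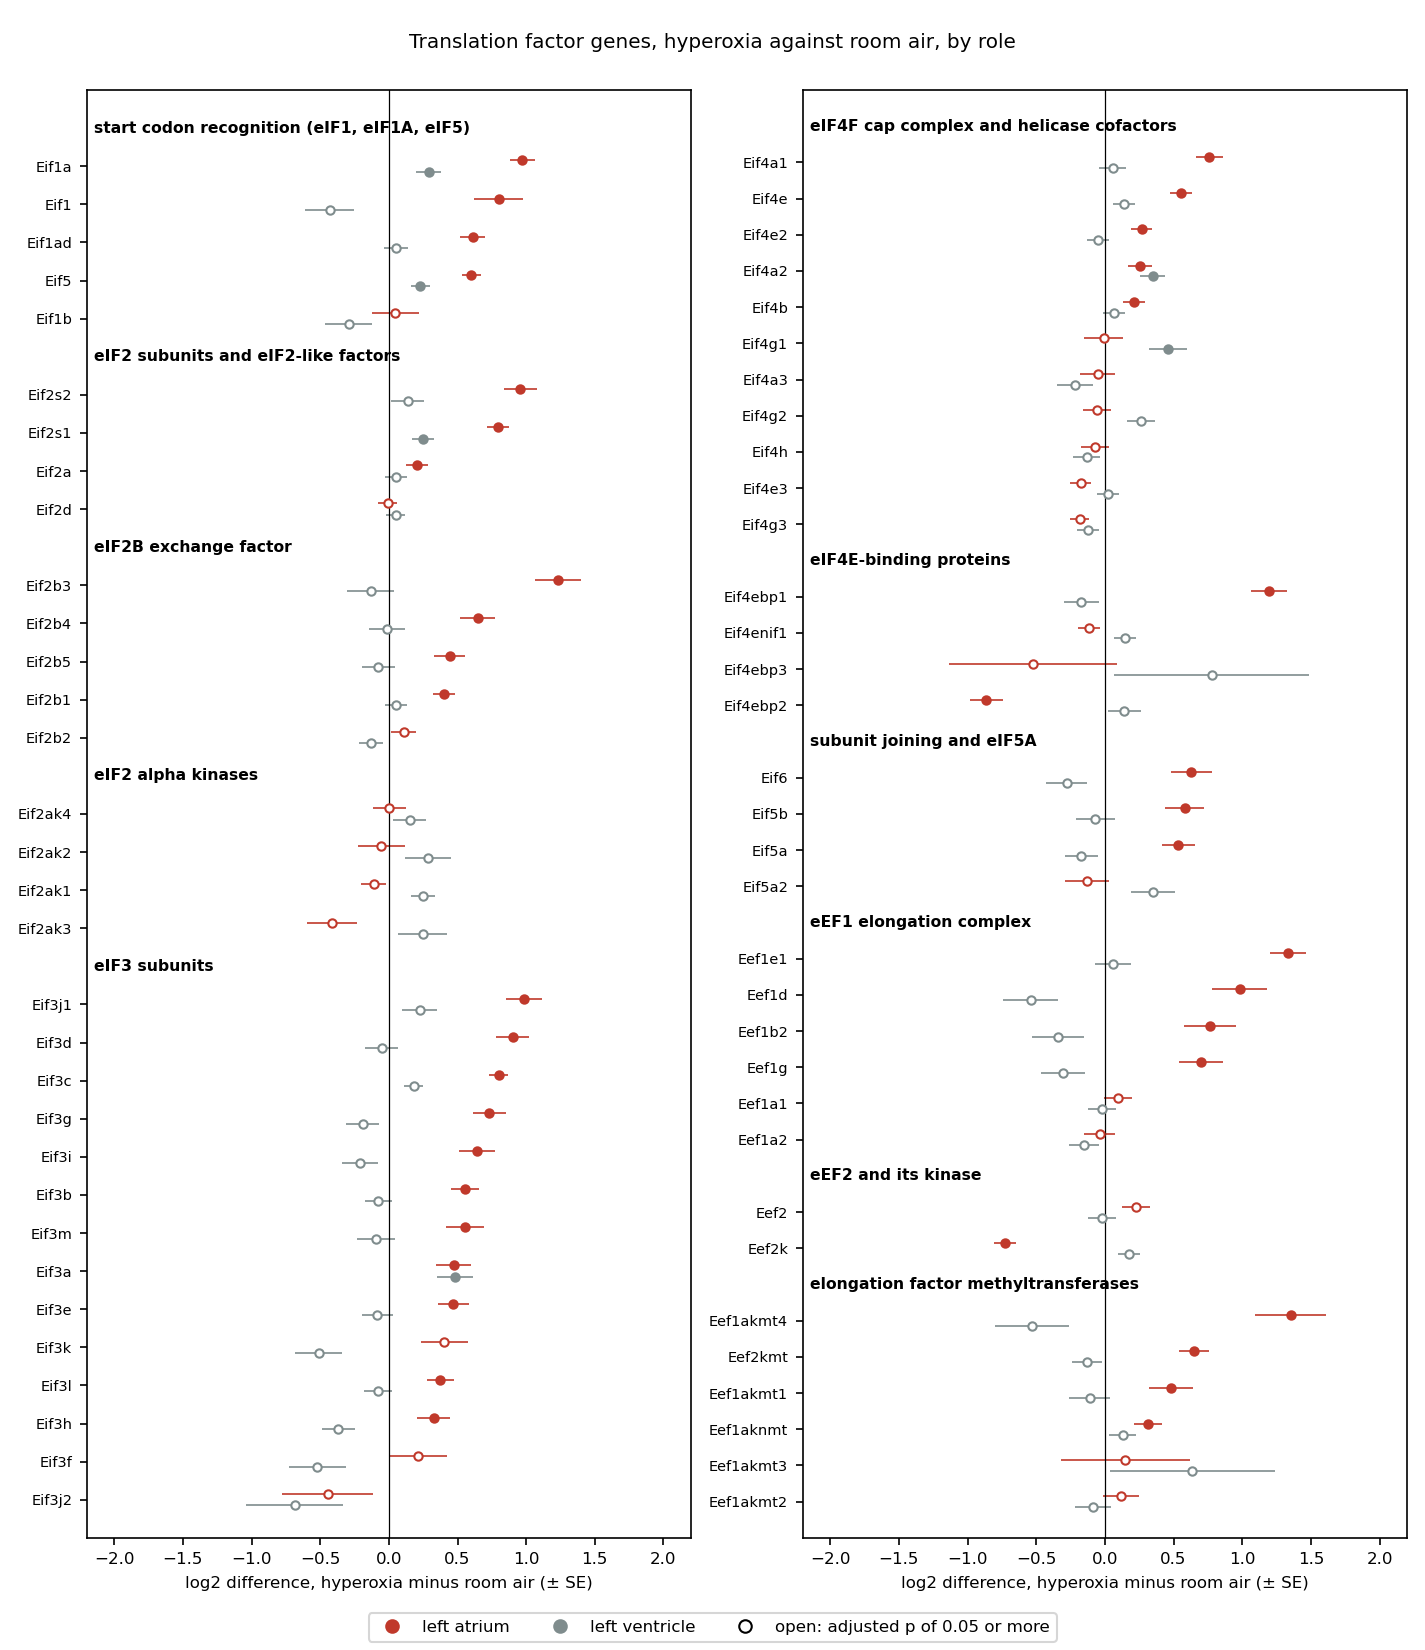
Log2 difference between hyperoxia and room air (± SE) for the 65 tested translation factor genes, grouped by role, with the left atrium in red and the left ventricle in grey; filled points have an adjusted p under 0.05. The atrial points lie to the right of 0 in most groups, with Eif4ebp2 and Eef2k at the far left, and only 6 ventricular points are filled.

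Of the cap complex, the genes of the cap-binding protein and of the helicases Eif4a1 and, less steadily, Eif4a2 rose. The scaffold genes gave no call over all libraries. Eif4e had 77.9, 91.1, 85, 96.6 and 84.4 CPM in hyperoxic atria, against 63.6, 56.8, 60.5, 58.9 and 56.7 CPM in room-air atria. The groups did not overlap, and the log2 difference was 0.55 ± 0.08 (SE, adjusted p = 1.6e-05). Eif4a1, the main eIF4A helicase, had 454, 573, 506, 606 and 470 CPM in hyperoxic atria, against 331, 295, 297, 325 and 292 CPM in room-air atria, again with no overlap (0.76 ± 0.10, adjusted p = 2.2e-06). Its paralogue Eif4a2 averaged 285 ± 30.9 CPM in hyperoxic atria and 239 ± 8.98 CPM in room-air atria (SD, n = 5 each), with hyperoxic atrium 2 inside the room-air range. Its rise of 0.26 (adjusted p = 0.031) lost the call without hyperoxic atrium 3 or 5 or room-air atrium 3, 4 or 5 (0.22 to 0.25, adjusted p 0.053 to 0.079). Eif4b, a helicase cofactor (0.21, adjusted p = 0.029), and Eif4e2, a cap-binding homologue (0.27, adjusted p = 0.0098), rose by small amounts, and Eif4b lost its call without hyperoxic atrium 3 or 5 or room-air atrium 1, 3 or 4 (0.19 to 0.20, adjusted p 0.065 to 0.075). Eif4e2 lost its call without the 3 short-leaning libraries (0.17, adjusted p = 0.059) and with the length slope as a covariate (0.12, adjusted p = 0.15). With both covariates, Eif4a1 kept its call (0.48, adjusted p = 0.014) and Eif4e did not (0.32, adjusted p = 0.11).

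The eIF4G scaffolds behaved otherwise. Eif4g1 had 401, 257, 414, 233 and 373 CPM in hyperoxic atria, against 343, 339, 366, 320 and 321 CPM in room-air atria. The 2 low values were those of the short-leaning hyperoxic atria 2 and 4, and the other 3 lay above every room-air atrium. Over all libraries the log2 difference was -0.01 ± 0.14 (adjusted p = 0.97), and without the 3 short-leaning libraries it was 0.23 (adjusted p = 0.033). Eif4g2, a related scaffold that lacks the eIF4E-binding region, averaged 863 ± 118 CPM in hyperoxic atria and 898 ± 86 CPM in room-air atria (log2 difference -0.06), and Eif4g3 gave -0.18 (adjusted p = 0.052). Of the other eIF4 genes, Eif4e3 (-0.18), Eif4a3, the helicase of the exon junction complex (-0.05), and Eif4h (-0.07) were not called, and without the short-leaning libraries Eif4a3 was called lower (-0.30, adjusted p = 0.007).

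The eIF4E-binding proteins split, with one of the largest rises and one of the 2 falls among all members. Eif4ebp1 (chromosome 8, 27260329 to 27276674, plus strand) had 173, 287, 197, 272 and 175 CPM in hyperoxic atria, against 99.8, 89.6, 96.0, 111 and 86.2 CPM in room-air atria. The lowest hyperoxic atrium was above the highest room-air atrium by a wide margin, and Eif4ebp1 rose 2.29-fold (log2 1.20 ± 0.13, adjusted p = 2.7e-07). Eif4ebp2 (chromosome 10, 61428491 to 61452661, minus strand), which encodes a second protein of the family, had 87.8, 64.5, 79.2, 57.7 and 76.2 CPM in hyperoxic atria, against 132, 127, 125, 116 and 164 CPM in room-air atria. These groups did not overlap either, and Eif4ebp2 fell to 0.549 of its room-air level (log2 -0.86 ± 0.12, adjusted p = 3.9e-06). Per kilobase of exon, Eif4ebp1 stood at 101 CPM in hyperoxic atria and 43.9 CPM in room-air atria, and Eif4ebp2 at 12.6 CPM in hyperoxic atria and 23.0 CPM in room-air atria. Both calls held with both covariates (0.85 for Eif4ebp1, adjusted p = 1.5e-05, and -0.50 for Eif4ebp2, adjusted p = 0.043). Eif4enif1, which carries eIF4E into the nucleus (-0.12, adjusted p = 0.24), and the scarce Eif4ebp3 (under 1 CPM on average in every group) were not called.

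Both genes of eIF2 subunits that were members rose. Eif2s1, the alpha subunit that the stress kinases phosphorylate (chromosome 12, 78861819 to 78887010, plus strand), had 86.6, 97.9, 103, 111 and 101 CPM in hyperoxic atria, against 59.9, 56.2, 55.4, 58.8 and 57.3 CPM in room-air atria. With no overlap and a room-air spread of a few CPM, the rise was 0.80 ± 0.08 on the log2 scale (adjusted p = 7.2e-08). Eif2s2, the beta subunit, averaged 158 ± 24.3 CPM in hyperoxic atria and 81.4 ± 4.93 CPM in room-air atria (0.96 ± 0.12, adjusted p = 1.4e-06). With both covariates Eif2s1 kept its call (0.55, adjusted p = 0.0045) and Eif2s2 did not (0.48, adjusted p = 0.059). Eif2a, an eIF2-independent initiator tRNA carrier, rose by 0.20 (adjusted p = 0.043) but lost the call in 9 of 20 fits that each left out 1 library (without hyperoxic atrium 3, 4 or 5, hyperoxic ventricle 6, room-air atrium 1, 2, 3 or 4 or room-air ventricle 3, with 0.14 to 0.21), and Eif2d gave -0.01.

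The exchange factor eIF2B rose in 4 of its 5 subunits. Eif2b3, the gamma subunit of its catalytic part, had 26.1, 40.4, 28.4, 45.0 and 29.3 CPM in hyperoxic atria, against 14.6, 13.8, 12.5, 17.4 and 13.6 CPM in room-air atria, which is 2.35-fold (log2 1.23 ± 0.17, adjusted p = 7.7e-06). The highest values were those of hyperoxic atria 2 and 4, but the other 3 also lay above every room-air atrium. Eif2b5, the catalytic epsilon subunit, averaged 92.7 ± 14.3 CPM in hyperoxic atria and 68.2 ± 5.67 CPM in room-air atria (0.44, adjusted p = 0.0036), Eif2b4 47.3 ± 8.68 CPM in hyperoxic atria and 30.3 ± 2.34 CPM in room-air atria (0.65, adjusted p = 0.00046), and Eif2b1 41.4 ± 3.72 CPM in hyperoxic atria and 31.3 ± 1.59 CPM in room-air atria (0.40, adjusted p = 0.00017). Eif2b2, the beta subunit of the regulatory part, averaged 42.2 ± 5.34 CPM in hyperoxic atria and 39.2 ± 3.95 CPM in room-air atria and was not called (0.11, adjusted p = 0.35). With both covariates edgeR called none of the 5 (2 had an unadjusted p under 0.05, and DESeq2 was not run in that design), and Eif2b3 then gave 0.52 (adjusted p = 0.098) and Eif2b5 0.13 (adjusted p = 0.62). With the length slope as the only covariate, Eif2b5 (0.19, adjusted p = 0.072) was the one of the 4 that lost its call.

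The kinases of eIF2 alpha gave no call over all libraries. None of the 4 passed in the atrium by edgeR or by DESeq2, and 1 of them, Eif2ak3, had an unadjusted p under 0.05 in either. Eif2ak2 was called higher with the length slope as a covariate (0.29, adjusted p = 0.041). When only libraries whose Y-linked counts exceeded Xist entered the fit, its value was -0.58. There the short-leaning atrium 2 was the only hyperoxic atrium. Eif2ak3 encodes PERK, the kinase of the endoplasmic reticulum, and had 25.8, 12.5, 24.3, 12.7 and 23.7 CPM in hyperoxic atria, against 27.4, 26.1, 27.3, 25.2 and 25.9 CPM in room-air atria. The 2 lowest values were again the short-leaning atria 2 and 4 (log2 difference -0.41, adjusted p = 0.062). Without the 3 short-leaning libraries it was -0.10 (adjusted p = 0.52), and without hyperoxic atrium 1, 3 or 5 it was called at -0.53, -0.50 and -0.48. Eif2ak1, the heme-regulated kinase, averaged 41.5 ± 3.93 CPM in hyperoxic atria and 44.8 ± 1.95 CPM in room-air atria. Eif2ak2, the kinase PKR that double-stranded RNA activates, averaged 17.9 ± 5.53 CPM in hyperoxic atria and 18.6 ± 1.75 CPM in room-air atria. Eif2ak4, the kinase GCN2 that uncharged tRNA activates, stood at 17.6 CPM in both groups (SD 3.91 hyperoxic, 1.34 room air).

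The genes grouped with the start codon factors rose, with 1 exception. Eif1a, the autosomal eIF1A gene, had 53.9, 60.2, 65.9, 56.6 and 55.5 CPM in hyperoxic atria, against 29.8, 29.0, 29.6, 30.4 and 30.1 CPM in room-air atria. The room-air atria lay very close together, and the rise was 1.96-fold (log2 0.97 ± 0.09, adjusted p = 4.1e-08). Eif5, the GTPase activator of eIF2, had 238, 223, 254, 234 and 238 CPM in hyperoxic atria, against 156, 155, 157, 156 and 159 CPM in room-air atria (0.60 ± 0.07, adjusted p = 7.3e-07). Eif1ad, a homologue of eIF1A, averaged 62.0 ± 9.1 CPM in hyperoxic atria and 40.6 ± 3.12 CPM in room-air atria (0.61, adjusted p = 2.1e-05). Eif1a, Eif5 and Eif1ad kept their calls with both covariates (0.98, 0.56 and 0.46). Eif1, which keeps the ribosome scanning, had 343, 674, 381, 697 and 345 CPM in hyperoxic atria, against 279, 241, 244, 304 and 333 CPM in room-air atria. Hyperoxic atria 2 and 4 stood far above the other 3, and the log2 difference was 0.80 over all libraries (adjusted p = 0.0013), 0.35 without the 3 short-leaning ones (adjusted p = 0.006) and 0.19 with both covariates (adjusted p = 0.45). Its paralogue Eif1b gave 0.05 (adjusted p = 0.84), and -0.33 (adjusted p = 0.0051) without the short-leaning libraries.

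The scaffold eIF3 rose in 11 of its 14 subunit genes. Eif3c, a core subunit, had 295, 301, 323, 299 and 316 CPM in hyperoxic atria, against 168, 169, 169, 179 and 196 CPM in room-air atria. The short-leaning atria did not stand out for it, and the rise was 1.74-fold (log2 0.80 ± 0.07, adjusted p = 2.7e-08). Eif3d, the subunit that can itself bind a cap, had 162, 254, 192, 231 and 162 CPM in hyperoxic atria, against 108, 101, 104, 120 and 103 CPM in room-air atria (0.90 ± 0.12, adjusted p = 2.3e-06). Eif3j1, the loosely held subunit that sits at the mRNA entry, averaged 42.5 ± 5.83 CPM in hyperoxic atria and 21.5 ± 1.25 CPM in room-air atria (0.99 ± 0.13, adjusted p = 2.2e-06). Eif3a, the largest subunit, had 312, 231, 362, 241 and 350 CPM in hyperoxic atria, against 227, 224, 233, 214 and 182 CPM in room-air atria. In its case hyperoxic atrium 2 fell inside the room-air range, atria 2 and 4 being the lowest (0.47 ± 0.13, adjusted p = 0.0042), and with the Y-linked over Xist ratio as a covariate the call was lost (0.13, adjusted p = 0.66). Eif3b (0.56), Eif3g (0.73), Eif3i (0.64), Eif3m (0.55), Eif3e (0.47), Eif3l (0.38) and Eif3h (0.33) also rose. Eif3h lost its call without hyperoxic atrium 2 or 4 or room-air atrium 2, 3 or 5 (0.24 to 0.32). Eif3k (0.40, adjusted p = 0.053), Eif3f (0.22, adjusted p = 0.42) and the scarce Eif3j2 (0.582 CPM in hyperoxic atria, 0.795 CPM in room-air atria) were not called. Eif3k was called higher without hyperoxic atrium 1, 3 or 5, hyperoxic ventricle 5, room-air atrium 4 or room-air ventricle 3 or 4 (0.40 to 0.50). It was also called higher by DESeq2 (0.44) and with the Y-linked over Xist ratio as a covariate, but stood at 0.02 without the short-leaning libraries. Eif3f was called lower with the length slope as a covariate (-0.37, adjusted p = 0.022). Its value was 0.74 in the fit limited to libraries whose Y-linked counts exceeded Xist, where atrium 2 was the only hyperoxic atrium. Eif3h, Eif3l and Eif3m lost their calls with the length slope alone and with the Y-linked over Xist ratio alone, and Eif3e with that ratio. With both covariates Eif3a, Eif3c, Eif3d, Eif3g and Eif3j1 were called higher, and Eif3b, Eif3i and Eif3l were not called. In that fit Eif3m (-0.13), Eif3h (-0.11) and Eif3e (-0.04) turned negative and were not called.

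Of the 4 genes of subunit joining and eIF5A, 3 rose. Eif5a, which relieves ribosomes stalled at prolines once it carries hypusine, averaged 533 ± 95.8 CPM in hyperoxic atria and 369 ± 36.6 CPM in room-air atria (0.53 ± 0.12, adjusted p = 0.0008). Eif6, which keeps free large subunits from joining, averaged 77.1 ± 20.6 CPM in hyperoxic atria and 49.9 ± 5.47 CPM in room-air atria (0.63 ± 0.15, adjusted p = 0.0022). Eif5b, the GTPase of subunit joining, averaged 152 ± 38.6 CPM in hyperoxic atria and 101 ± 7 CPM in room-air atria (0.58, adjusted p = 0.0023). Without the 3 short-leaning libraries Eif5a gave 0.34, Eif6 0.32 and Eif5b 0.29, all still called. With the length slope as a covariate Eif5a kept its call, and Eif6 and Eif5b lost theirs. With both covariates Eif5a, Eif6 and Eif5b gave 0.18, 0.35 and 0.13, none of them called (adjusted p 0.35, 0.16 and 0.61). The second eIF5A gene, Eif5a2, averaged 11.6 ± 3.37 CPM in hyperoxic atria and 12.7 ± 0.954 CPM in room-air atria (-0.13, adjusted p = 0.54).

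Among elongation factors, the exchange subunits rose and the abundant carriers gave no call. Eef1a1 was the most abundant member, at 1430 CPM per kilobase in hyperoxic atria and 1330 CPM per kilobase in room-air atria, and its log2 difference was 0.10 ± 0.10 (adjusted p = 0.46). Eef1d, the delta subunit of eEF1B, had 228, 469, 257, 418 and 213 CPM in hyperoxic atria, against 166, 149, 147, 191 and 149 CPM in room-air atria. No libraries overlapped, but hyperoxic atria 2 and 4 were far above the other 3, and the log2 difference was 0.98 ± 0.20 over all libraries (adjusted p = 0.00052), 0.54 without the short-leaning ones (adjusted p = 0.00018) and 0.40 with both covariates (adjusted p = 0.052). The same 2 atria led in Eef1b2, the catalytic exchange subunit (0.77, against 0.31 without the short-leaning libraries), and in Eef1g, the gamma subunit (0.70, against 0.35). These values were called, but Eef1b2 was not with the length slope as a covariate (0.19, adjusted p = 0.054) or with both covariates (0.15, adjusted p = 0.49), and Eef1g was not with both (0.23, adjusted p = 0.24). Eef1e1 (chromosome 13, 38644207 to 38659058, minus strand), a scaffold of the multi-aminoacyl-tRNA synthetase complex, had 25.3, 33.2, 30.5, 39.7 and 28.5 CPM in hyperoxic atria, against 12.8, 12.4, 12.8, 12.4 and 11.8 CPM in room-air atria. The groups lay far apart, the rise was 2.52-fold (log2 1.33 ± 0.13, adjusted p = 4.9e-08), and it kept its call with both covariates (0.90, adjusted p = 0.002).

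The eEF2 kinase gene was the other member to fall. Eef2k (chromosome 7, 120842831 to 120907450, plus strand) had 37.0, 34.0, 35.6, 27.6 and 36.4 CPM in hyperoxic atria, against 55.4, 55.2, 54.9, 56.0 and 61.5 CPM in room-air atria. The highest hyperoxic atrium was well below the lowest room-air atrium, and the level fell to 0.603 of that in room air (log2 -0.73 ± 0.08, adjusted p = 2.7e-07), -0.64 without the short-leaning libraries and -0.48 with both covariates (adjusted p = 0.0092). Its substrate Eef2 had 2390, 2130, 2520, 1800 and 2260 CPM in hyperoxic atria, against 1850, 1980, 1850, 1910 and 1900 CPM in room-air atria. Hyperoxic atrium 4 was the lowest of all 10 and the other 4 were above every room-air atrium. The log2 difference of 0.22 was not called (adjusted p = 0.072), whereas without that atrium it was 0.29 (adjusted p = 0.018) and without hyperoxic ventricle 5 it was 0.30 (adjusted p = 0.017). Eef2 was also called higher without the 3 short-leaning libraries, with the length slope as a covariate and by DESeq2. Of the enzymes that methylate these factors, Eef1akmt4, an eEF1A lysine methyltransferase, showed the largest difference of any member on the log2 scale, at a low level: 4.69, 9.32, 4.69, 7.83 and 4.56 CPM in hyperoxic atria, against 2.86, 2.19, 2.29, 2.04 and 2.77 CPM in room-air atria (log2 1.35 ± 0.26, adjusted p = 0.00027). Its exons overlap those of Alg3 on the other strand and of another gene model on its own, and with both covariates it was not called (0.56, adjusted p = 0.44). Eef2kmt, which methylates eEF2, averaged 23.8 ± 3.8 CPM in hyperoxic atria and 15.2 ± 1.18 CPM in room-air atria (0.65, adjusted p = 5.9e-05), and Eef1aknmt rose by 0.32 (adjusted p = 0.014). Eef1akmt1 rose by 0.48 (adjusted p = 0.017), with 0.29 (adjusted p = 0.082) without hyperoxic atrium 4.

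**Figure D2:**
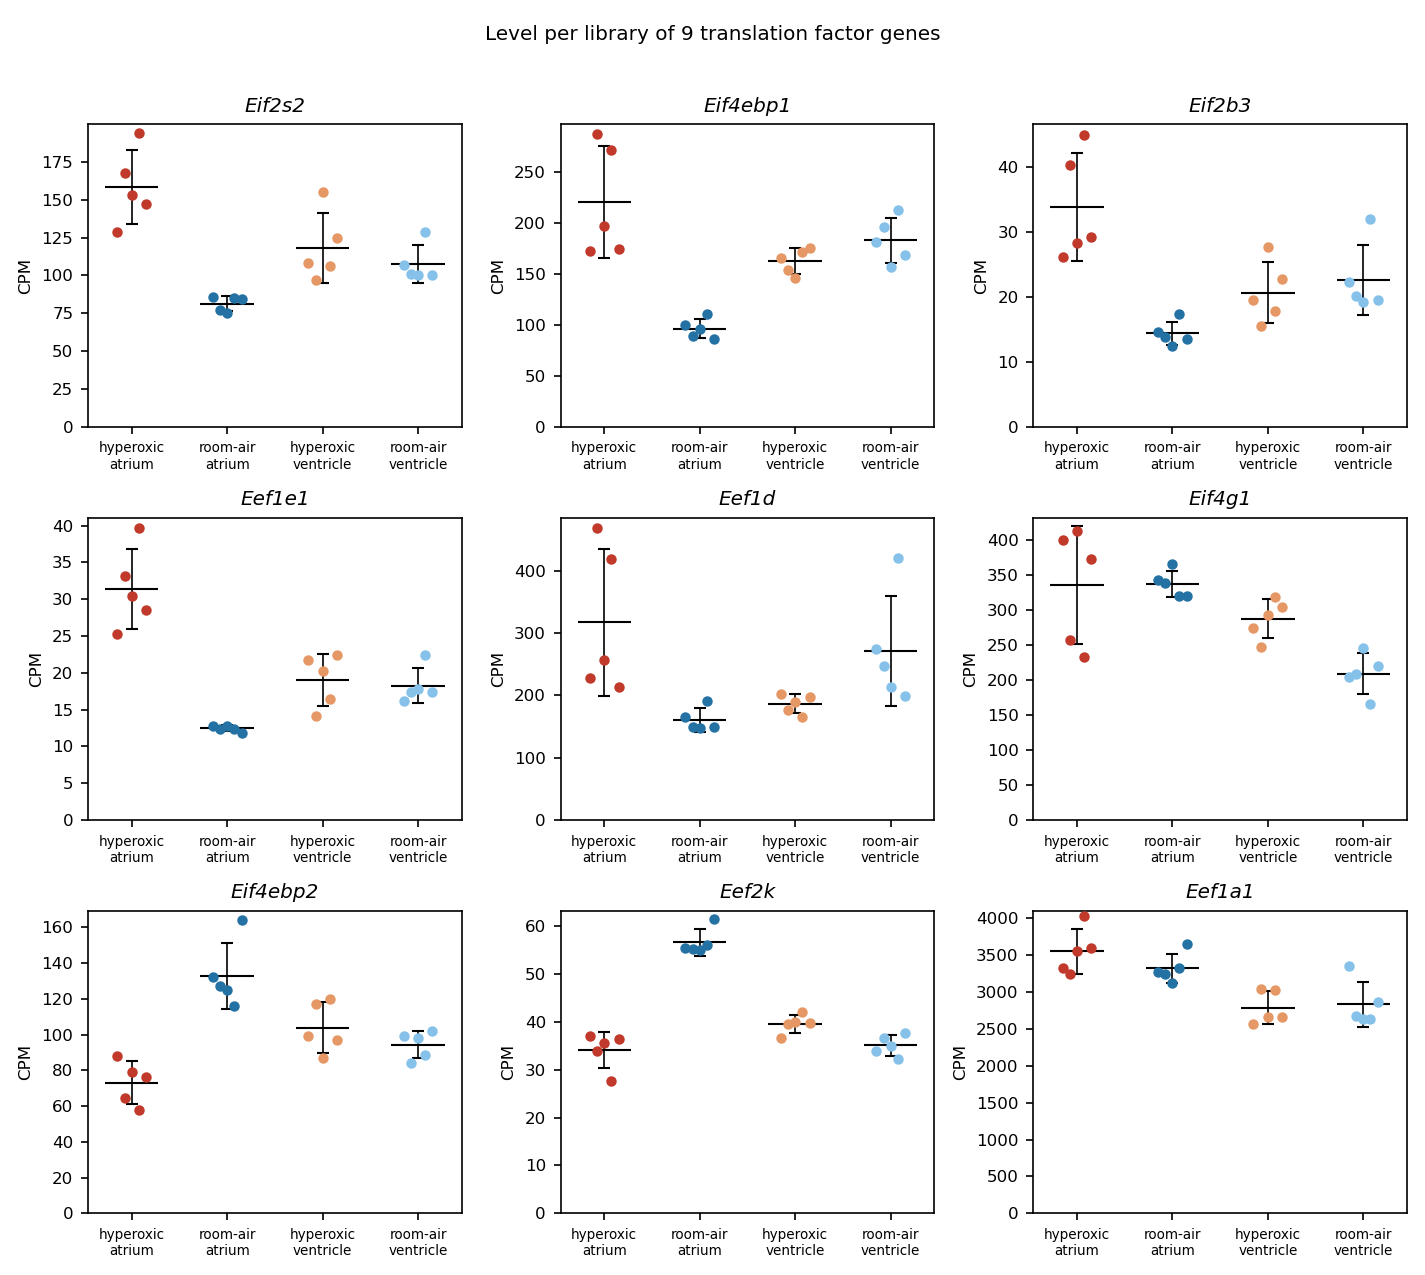
Level in CPM of 9 translation factor genes in each of the 20 libraries (points), by group, with the mean and SD as bars. By group mean, Eef2k and Eif4ebp2 are lowest in the hyperoxic atria, while Eef1e1 and Eif4ebp1 are highest there. For Eef2k and Eif4ebp1 the hyperoxic atria overlap the room-air ventricles.

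In the left ventricle few of the same genes differed. 6 of the 65 tested members rose (9.23%, against 5.64% of all tested genes), and edgeR called none lower (5 had an unadjusted p under 0.05 in that direction, DESeq2 called 3 lower, and 5.28% of all genes were called lower). The members' median log2 difference was -0.02, beside -0.01 over all genes. The largest was that of Eif3a, with 216, 189, 271, 246 and 237 CPM in hyperoxic ventricles, against 162, 160, 189, 143 and 175 CPM in room-air ventricles (0.48 ± 0.13, adjusted p = 0.019). The lowest hyperoxic and the highest room-air ventricle both stood at 189 CPM. Eif4g1 had 275, 248, 294, 319 and 305 CPM in hyperoxic ventricles, against 205, 209, 246, 166 and 221 CPM in room-air ventricles (0.46 ± 0.14, adjusted p = 0.036), just without overlap. Eif4a2 averaged 259 ± 27.4 CPM in hyperoxic ventricles and 203 ± 21.6 CPM in room-air ventricles (0.35, adjusted p = 0.023). Smaller rises were called for Eif1a (0.29, adjusted p = 0.048), Eif2s1 (0.25, adjusted p = 0.045) and Eif5 (0.23, adjusted p = 0.043). All 5 hyperoxic ventricles lay above all 5 room-air ventricles for 6 members (6.51% of all genes did) and below them for 3 (5.93%).

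The ventricular calls were the least steady of the comparisons. All 6 were lost without hyperoxic ventricle 4, with Eif3a at 0.42 (adjusted p = 0.055), Eif4g1 at 0.45 (0.07), Eif4a2 at 0.28 (0.066), Eif1a at 0.19 (0.13), Eif2s1 at 0.20 (0.11) and Eif5 at 0.18 (0.11). Without room-air ventricle 1, and without room-air ventricle 4, 1 member was called (6.66% and 5.81% of all genes were). Without hyperoxic atrium 2 there were 10 (15% of all genes). With the Y-linked over Xist ratio as a covariate edgeR called none (none had an unadjusted p under 0.05, and 0.223% of all genes were called), so that the ventricular differences could not be told apart from that ratio. Endothelial markers were lower in all 5 hyperoxic ventricles (1120 to 1270 CPM, against 1330 to 1620 CPM in room air), as were erythroid markers (906 to 1270 CPM, against 1810 to 2860 CPM in room air), and their part was not tested. 5 of the 6 ventricular genes, Eif1a, Eif2s1, Eif3a, Eif4a2 and Eif5, were also among the 39 that rose in the atrium. The share of all genes called higher in both chambers was not counted.

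The response to hyperoxia differed between the chambers for most members. In the test of the difference (atrial response minus ventricular response), 35 members were higher and 4 lower, 60% of those tested, against 36.5% of all genes (17% higher and 19.5% lower). Eef1akmt4 (1.88 ± 0.38 on the log2 scale), Eef1d (1.52 ± 0.29), Eif4ebp1 (1.37 ± 0.18), Eif2b3 (1.36 ± 0.25), Eef1e1 (1.27 ± 0.18) and Eif1 (1.23 ± 0.26) led the higher ones. The 4 lower ones were Eif4ebp2 (-1.0 ± 0.16), Eef2k (-0.90 ± 0.11), Eif2ak3 (-0.66 ± 0.25) and Eif2ak1 (-0.36 ± 0.12). Eef2k, which fell in the atrium, stood at 39.6 ± 1.94 CPM in hyperoxic ventricles and 35.1 ± 2.18 CPM in room-air ventricles and was not called there (0.17, adjusted p = 0.15). Eif2ak1 lost the call without hyperoxic atrium 2, hyperoxic ventricle 5 or room-air ventricle 4 (-0.30 to -0.32), and Eif2ak3 in 14 of 20 such fits (adjusted p 0.051 to 0.1). The short-leaning libraries sat in the hyperoxic atria and in the room-air ventricles, which enter this contrast with the same sign. The count was 29 without them (27 higher, 2 lower, with 26.1% of all genes called). With the length slope as a covariate it was 19 (15 higher, 4 lower, with 15.9% of all genes called). Eef1e1, Eif1a, Eif3c, Eif3d, Eif3g, Eif4ebp1, Eif5 and Eef1d stayed higher, and Eef2k and Eif4ebp2 lower, with both covariates.

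Atrium and ventricle also differed in room air, for 15 members in the opposite direction from hyperoxia. The share of all genes called in opposite directions was not counted, so these 15 have no background to be read against. Of the 65 tested members 10 were higher and 23 lower in room-air atria than in room-air ventricles (50.8%, against 55% of all genes, 28.7% higher and 26.3% lower), with a median log2 difference of -0.18. Between hyperoxic atria and hyperoxic ventricles 33 were higher and 7 lower (61.5%, against 48.8% of all genes, 25.2% higher and 23.6% lower), with a median of 0.27. Every hyperoxic atrium lay above every hyperoxic ventricle for 17 members (16.6% of all genes did) and below for 4 (16.3%), Eif2ak4, Eef1a2, Eif4e3 and Eef1akmt1. In room air every atrium lay above every ventricle for 10 members (25.1%) and below for 21 (21.4%). The 13 that were higher in the atrium under hyperoxia and lower in it in room air included Eif4ebp1, Eif2b3, Eif2s1, Eif2s2, Eef1d and Eef1e1. Without the short-leaning libraries 7 of the 13 were called in both directions (Eef1d, Eef1e1, Eif2b3, Eif2s1, Eif2s2, Eif3g and Eif5), and with the length slope as a covariate 4 were (Eef1d, Eef1e1, Eif2b3 and Eif5), with a room-air median over the members of 0.01. Eef2k and Eif4ebp2 did the reverse, and of these Eif4ebp2 was called in both directions under either setting. Eef2k stood at 34.1 ± 3.8 CPM in hyperoxic atria and 39.6 ± 1.94 CPM in hyperoxic ventricles (-0.21, adjusted p = 0.031), and at 56.6 ± 2.78 CPM in room-air atria and 35.1 ± 2.18 CPM in room-air ventricles (0.69, adjusted p = 2.1e-07). The hyperoxic difference of Eef2k was lost without hyperoxic atrium 4 (-0.15, adjusted p = 0.1) or hyperoxic ventricle 6 (-0.21, adjusted p = 0.051), without the 3 short-leaning libraries (-0.12, adjusted p = 0.16) and with the length slope as a covariate (-0.11, adjusted p = 0.2). Eif4ebp1 averaged 221 ± 54.8 CPM in hyperoxic atria and 163 ± 12.6 CPM in hyperoxic ventricles (0.44, adjusted p = 0.0072), and 96.4 ± 9.55 CPM in room-air atria and 183 ± 22.1 CPM in room-air ventricles (-0.93, adjusted p = 3.5e-06). Without the short-leaning libraries the hyperoxic difference of Eif4ebp1 was 0.16 and not called (adjusted p = 0.14).

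**Figure D3:**
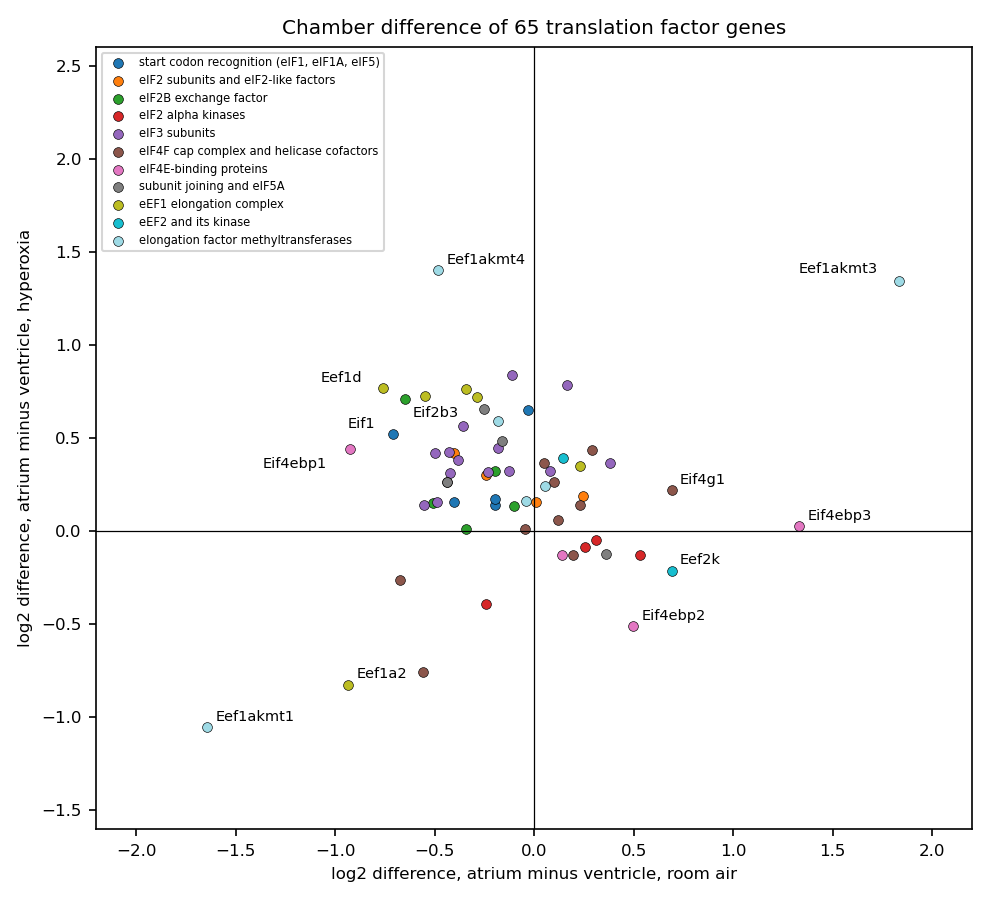
Log2 difference between left atrium and left ventricle for the 65 tested members, with hyperoxia on the y axis and room air on the x axis, coloured by role. Most points sit above 0 on the y axis and left of 0 on the x axis, Eef1akmt1 and Eef1a2 are low on both axes, and Eef2k and Eif4ebp2 are in the lower right.

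4 members were lower in the atrium at both oxygen levels. The shares of all genes called the same way at both levels were not counted. Eef1akmt1, which methylates eEF1A, averaged 13.9 ± 4.26 CPM in hyperoxic atria and 28.7 ± 1.28 CPM in hyperoxic ventricles (-1.05, adjusted p = 6.4e-06), and 9.93 ± 1.17 CPM in room-air atria and 31.0 ± 5.5 CPM in room-air ventricles (-1.64, adjusted p = 1.2e-08). Eef1a2, the muscle form of eEF1A, had 160, 204, 170, 173 and 139 CPM in hyperoxic atria, against 293, 334, 255, 345 and 272 CPM in hyperoxic ventricles. All atria were below all ventricles (-0.82 ± 0.12, adjusted p = 3.5e-06), and in room air the difference was -0.94 ± 0.12 (adjusted p = 5.7e-07). The other two were Eif4e (-0.26 under hyperoxia, -0.67 in room air) and Eif4e3, a cap-binding homologue (-0.76 and -0.56). Higher in the atrium at both levels were Eif3a (0.37 under hyperoxia and 0.38 in room air), Eif4b (0.44 and 0.29), Eif2d (0.19 and 0.25) and Eef1akmt3, which averaged under 1 CPM. Single libraries decided some of these. Eif3a lost its call under hyperoxia without hyperoxic atrium 3 or 5 or hyperoxic ventricle 2 (0.29 to 0.30) and in room air without hyperoxic ventricle 5 (0.28, adjusted p = 0.064), and Eif2d in room air without hyperoxic ventricle 5 (0.15, adjusted p = 0.096). Under hyperoxia Eif2d was lost without hyperoxic atrium 2 or 4 or hyperoxic ventricle 1, 4, 5 or 6 (0.14 to 0.19), and Eef1akmt3 without hyperoxic atrium 1, 3 or 5 or hyperoxic ventricle 1, 2, 5 or 6 (1.08 to 1.3). Eif4g1 was higher in the atrium in room air (0.69, adjusted p = 0.00023), while under hyperoxia its difference of 0.22 was not called (0.33, adjusted p = 0.035, without hyperoxic atrium 4). Eif2ak4 was lower in hyperoxic atria than in hyperoxic ventricles (17.6 ± 3.91 and 23.1 ± 1.18 CPM, -0.39, adjusted p = 0.009), and -0.18 (adjusted p = 0.093) without the short-leaning libraries.

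Within a library, paralogue shares and partner ratios do not depend on scaling. They were compared by exact two-sided permutation tests over the libraries, 12 in all, whose smallest possible p is 0.0079. Of the summed level per kilobase of Eef1a1 and Eef1a2, Eef1a2 made up 5.43% ± 0.964 in hyperoxic atria and 5.89% ± 0.206 in room-air atria, and 11.4% ± 0.747 in hyperoxic ventricles and 12.3% ± 1.3 in room-air ventricles (SD, n = 5 each). The share was lower in the atrium than in the ventricle under hyperoxia (by exact permutation, adjusted p = 0.014) and in room air (adjusted p = 0.014), with no library of one chamber in the range of the other. It did not pass the test between oxygen levels in the atrium (adjusted p = 0.34) or the ventricle (adjusted p = 0.25), but without hyperoxic atrium 2 the atrial share differed by -0.852 percentage points (exact adjusted p = 0.021).

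The share of the second helicase was lower under hyperoxia in the atrium and higher in the ventricle. Of Eif4a1 plus Eif4a2 per kilobase, Eif4a2 made up 34.2%, 25.4%, 33.2%, 26.5% and 35.3% in hyperoxic atria, against 37.6%, 40.6%, 39.1%, 37.3% and 38.6% in room-air atria. The groups did not overlap, hyperoxic atria 2 and 4 being the lowest (a difference of -7.75 percentage points, exact adjusted p = 0.014), and without the short-leaning libraries the difference was -4.45 points (exact adjusted p = 0.048). In the ventricle the share was 32.5%, 33.6%, 32.9%, 32.9% and 31.3% under hyperoxia, against 26.7%, 29.8%, 30.6%, 23.5% and 31.4% in room air. Only the lowest hyperoxic ventricle and the highest room-air ventricle crossed, by a small margin (4.26 points, exact adjusted p = 0.024). Between hyperoxic atria and hyperoxic ventricles it differed by -1.76 points (exact adjusted p = 0.44). The share was 10.3 points higher in room-air atria than in room-air ventricles (exact adjusted p = 0.014).

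The ratio of Eif4ebp1 to Eif4e, per kilobase, gives the binding protein's transcript relative to that of its partner. On the log2 scale it was 2.6, 3.11, 2.67, 2.94 and 2.50 in hyperoxic atria, against 2.10, 2.11, 2.12, 2.36 and 2.06 in room-air atria. Every hyperoxic atrium was above every room-air atrium, the short-leaning atria 2 and 4 being the highest. The geometric mean ratio was 6.77 in hyperoxic atria and 4.44 in room-air atria (log2 difference 0.616, exact adjusted p = 0.014). Eif4ebp1 has 2196 bases of exon and Eif4e 6008, and without the 3 short-leaning libraries the log2 difference was 0.441 (exact adjusted p = 0.048). In the ventricle it was 2.13, 2.18, 1.75, 2.24 and 2.17 under hyperoxia, against 2.59, 2.46, 2.26, 2.42 and 2.28 in room air. Here every hyperoxic ventricle was below every room-air ventricle (a log2 difference of -0.308, exact adjusted p = 0.014), although neither gene alone was called in the ventricle (Eif4ebp1 -0.17, Eif4e 0.14). Between room-air atria and room-air ventricles the log2 ratio differed by -0.254 (exact adjusted p = 0.032), and this was lost (exact adjusted p = 0.063) without room-air atrium 1, 2, 3 or 5 or room-air ventricle 1, 2 or 4 (-0.25 to -0.206).

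**Figure D4:**
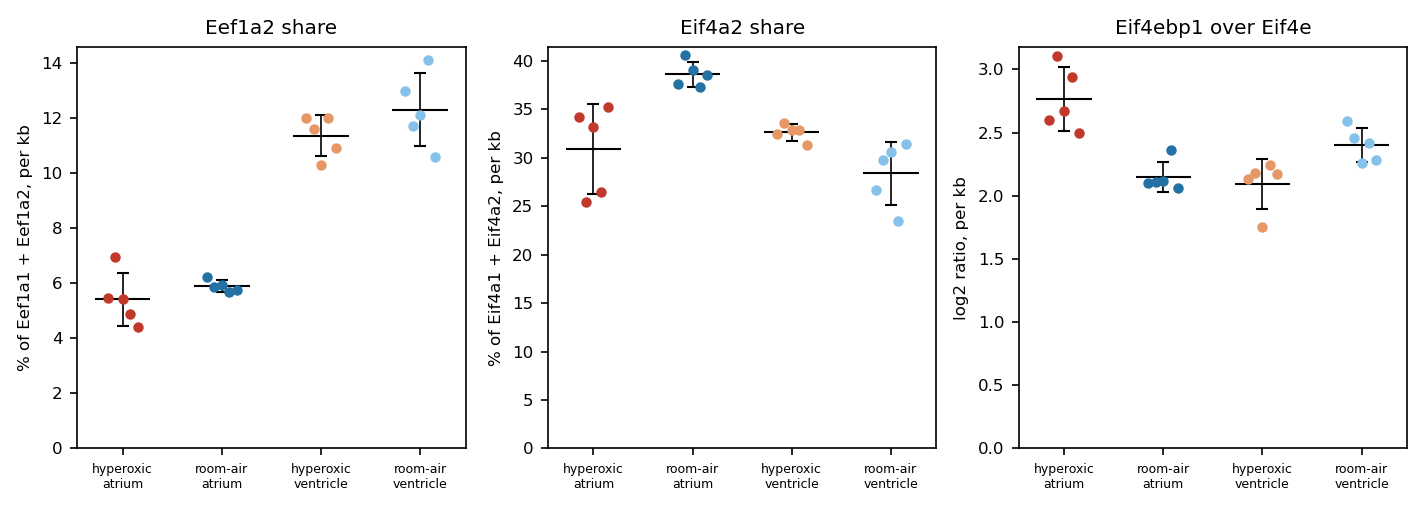
Share of Eef1a2 in Eef1a1 plus Eef1a2, share of Eif4a2 in Eif4a1 plus Eif4a2 (both in percent, per kilobase) and log2 ratio of Eif4ebp1 to Eif4e in each library, by group, with the mean and SD as bars. The Eef1a2 share separates the chambers. By group mean the Eif4ebp1 to Eif4e ratio is highest in hyperoxic atria (2.50 to 3.11), which overlap the room-air ventricles (2.26 to 2.59).

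Genes that act on these factors were read from lists of other translation genes, chosen with earlier results of these data known. Of 14 mTORC1 pathway genes tested, 3 rose and 1 fell in hyperoxic atria (21.4% and 7.14%, against 19.7% and 24.2% of all genes, with a median log2 difference of 0.01): Sesn2, which restrains mTORC1 when leucine is short, rose to 39.0 ± 4.49 CPM in hyperoxic atria, against 6.83 ± 0.645 CPM in room-air atria (2.51, adjusted p = 3.1e-12), with Larp1 (0.40) and Rheb (0.30), while Deptor, an mTOR inhibitor, fell by 0.76 on the log2 scale. In the ventricle Mtor (0.44, adjusted p = 0.013) and Sesn2 (0.65, adjusted p = 0.0017) rose. Of 13 partners of the cap and the poly(A) tail, 3 rose and 3 fell in hyperoxic atria, 23.1% each way, which is near the 19.7% and 24.2% of all genes. Pabpc4, a poly(A)-binding protein (0.52), Ncbp1 of the nuclear cap-binding complex (0.43) and the helicase Ddx3x (0.39) were higher, and Pdcd4, an inhibitor of eIF4A (-0.63), the eIF4E kinase gene Mknk2 (-0.33) and Paip2, an antagonist of poly(A)-binding protein (-0.24), were lower. Ddx3x is X-linked, and with the Y-linked over Xist ratio as a covariate its atrial value was -0.24 and not called (adjusted p = 0.36). Its call was also lost without hyperoxic atrium 3 or 5 or room-air atrium 4 (0.31 to 0.35).

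Of 12 genes on eIF2 phosphorylation and reinitiation, 7 rose in hyperoxic atria (58.3%, against 19.7% of all genes). The summed level of the 12 was 1020 to 1490 CPM there and 572 to 608 CPM in room-air atria. This list too was chosen with earlier results of these data known, so its share is only a description. Ppp1r15a encodes GADD34, which directs a phosphatase to eIF2 alpha, and averaged 145 ± 15 CPM in hyperoxic atria and 55.5 ± 7.57 CPM in room-air atria (1.39 ± 0.12, adjusted p = 6.5e-09). Atf4 (1.65), Ddit3 (2.53) and Trib3 (4.76), all on the response that phosphorylated eIF2 starts, rose with it, and so did Denr (0.68), Mcts1 (0.56) and Mcts2 (0.49), whose products restart ribosomes after short upstream reading frames. In the same libraries the constitutive phosphatase partner Ppp1r15b was not called (0.05, adjusted p = 0.71). In the ventricle Trib3 (1.03) and Nck1 (0.35) were the 2 of the 12 that rose (16.7%, against 5.64% of all genes).

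**Figure D5:**
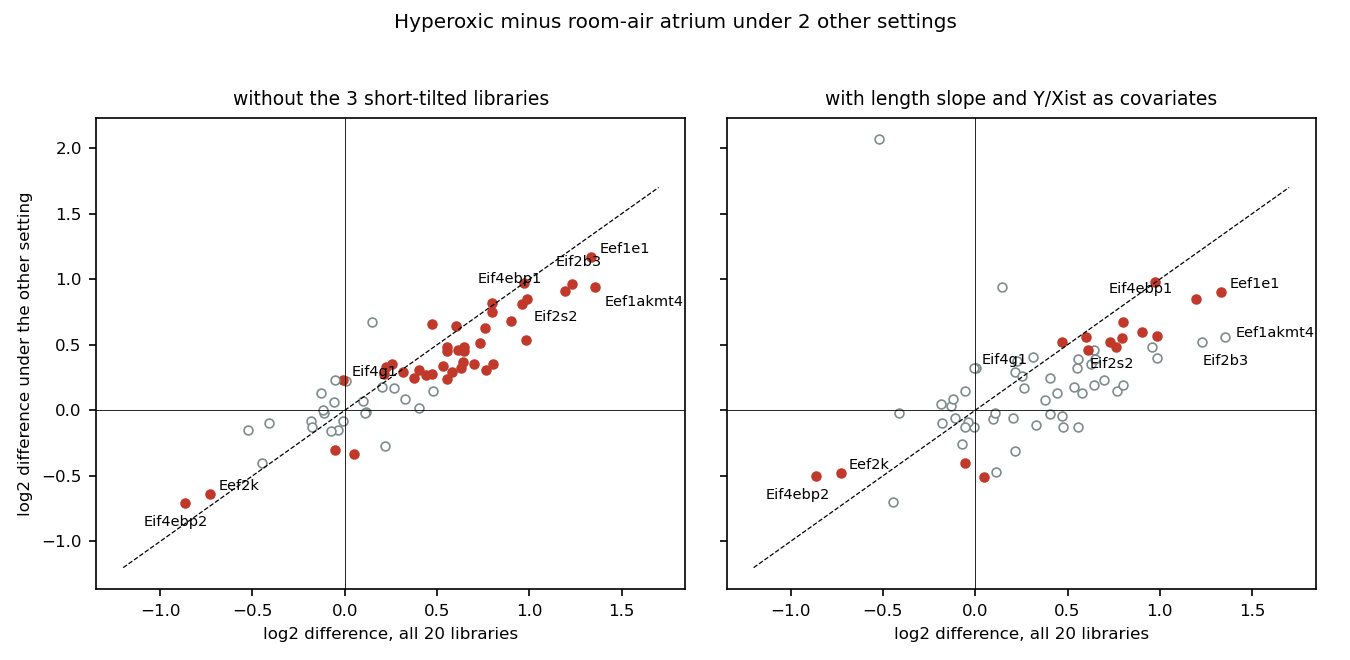
Log2 difference between hyperoxic and room-air atria for the 65 tested members over all 20 libraries (x axis) and under another setting (y axis): without the 3 short-leaning libraries on the left, and with both covariates on the right; filled red points have an adjusted p under 0.05 under that setting. Eef2k and Eif4ebp2 stay low and Eef1e1 and Eif4ebp1 high in both panels, most other values shrink in the right one, and the open point at the top left of it is the scarce Eif4ebp3.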

How the data were processed

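Strand-specific poly(A) libraries (TruSeq Stranded mRNA, per the labels) gave 1 file of whole-number counts per gene symbol for each library, which the authors deposited unnormalized. The submitters' processing notes name fastp 0.20.1, STAR 2.7.6a, featureCounts of Subread 2.0.1, Salmon 1.3.0 and GRCm38.p6. The strand setting of counting is not given in the sources used here: 19 members share exonic bases with a gene on the opposite strand and 14 with one on the same strand, so their counts may mix both. Members and lists were chosen with earlier results of these data known.

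All 20 libraries were fitted in edgeR 4.0.16 (R 4.3.3): TMM scaling, filterByExpr, a mean per group, robust quasi-likelihood tests and Benjamini-Hochberg adjustment over 16598 genes (common biological coefficient of variation 0.183). Levels are CPM on TMM-scaled totals. Levels per kilobase use the union of exons in GENCODE M21, which gave positions for 66 members by symbol. Genes named were a set of core factors, those with the largest called differences and those with the smallest p in each role or list. The script was tested on simulated data. Alternatives were other scalings, no filter, DESeq2 1.42.0, only the libraries compared, replicate blocks, the 2 covariates, libraries left out and, added after seeing the data, both covariates together. Within groups no 2 libraries agreed within sampling noise (smallest chi-square per degree of freedom 13.26).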

Additional observations from a re-analysis of the deposited data

Results flagged for a closer look

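In groups of 5 libraries, 9 of 164 checks found 1 library far from the rest by Dixon's 95% criterion (a gap over 0.71 of the group's range), and chance alone gives about 1 in 20. Room-air ventricle 4, one of the short-leaning libraries, was the highest of its group for Eef1e1 (22.4 CPM, the next 17.8), Eif2b3 (32.0 CPM, the next 22.3), Eif3j1 (37.7 CPM, the next 27.0) and Eif2s2 (129 CPM, the next 107). Room-air atrium 5 was the highest for Eef2k (61.5 CPM, the next 56.0), hyperoxic ventricle 4 for Eif2ak1 (50.9 CPM, the next 41.6) and hyperoxic ventricle 5 for Eif4e3 (23.0 CPM, the next 20.5). The log2 ratio of Eif4ebp1 to Eif4e stood apart in hyperoxic ventricle 4 (1.75, the next 2.13) and in room-air atrium 4 (2.36, the next 2.12).

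For 26 of the 38 named members the response to hyperoxia differed between atrium and ventricle (edgeR quasi-likelihood test of the difference, adjusted p under 0.05). Some were named because this test called them, so the count cannot be read against the 36.5% of all genes called. With the length slope as a covariate, Eif1, Eif2b5, Eif3j1, Eif4e, Eif5a, Eif6, Eif2ak1 and Eif2ak3 were not called. Eef1b2, Eef1g, Eef1akmt4, Eef1akmt1 and Eef2kmt also lost their calls in that fit. The difference is given here as the log2 atrial minus the log2 ventricular response. Among initiation factors it was 1.23 for Eif1, 0.68 for Eif1a, 0.37 for Eif5, 0.54 for Eif2s1, 0.82 for Eif2s2, 1.36 for Eif2b3, 0.52 for Eif2b5, 0.62 for Eif3c, 0.95 for Eif3d, 0.76 for Eif3j1, 0.70 for Eif4a1, 0.41 for Eif4e, 0.71 for Eif5a and 0.91 for Eif6. Among regulators it was 1.37 for Eif4ebp1, -1.0 for Eif4ebp2, -0.90 for Eef2k, -0.36 for Eif2ak1 and -0.66 for Eif2ak3. Among elongation genes it was 1.52 for Eef1d, 1.11 for Eef1b2, 1.01 for Eef1g and 1.27 for Eef1e1, and among methyltransferases 1.88 for Eef1akmt4, 0.59 for Eef1akmt1 and 0.78 for Eef2kmt.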

How the results depend on the processing

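The number of members called in the atrium was 37 to 44 in the fits that left out 1 library (38% to 46.2% of all genes were called). With both covariates, an alternative added after seeing the data, it was 16 (12 higher, 4 lower, with 16.4% of all genes called). In the other settings it was 33 to 44 (20.2% to 46.7% of all genes). This leaves aside the fit limited to libraries with more Y-linked than Xist counts, where the short-leaning atrium 2 was the only hyperoxic atrium. In the ventricle, against 6 called, there were 3 with no filter, 10 by DESeq2 (7 higher, 3 lower), 13 without the 3 short-leaning libraries (8 higher, 5 lower, with 19.4% of all genes called), 0 to 10 with 1 library left out, and 0 with the Y-linked over Xist ratio as a covariate, 0 in libraries with more Y-linked than Xist counts only and 0 with both covariates (edgeR; 0, 12 and 7 had an unadjusted p under 0.05, and DESeq2 was not run in these designs). In the test of the difference there were 19 with the length slope (15.9% of all genes were called) and 13 with both covariates (14.6%). The Eef1a2 share in the atrium differed by -0.799 points (exact adjusted p = 0.048) without the short-leaning libraries and by -0.852 to -0.213 with 1 library left out. The Eif4a2 share between hyperoxic atria and ventricles turned from -1.76 points to 1.55 without the short-leaning libraries (exact adjusted p = 0.078). The Eif4ebp1 to Eif4e ratio between room-air atria and ventricles was -0.25 (exact adjusted p = 0.057) without them and -0.307 to -0.206 with 1 library left out, past the threshold in 3 of those 10.

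Among genes named by the rule, signs turned in the atrium for Eif4g1 (0.29 with the slope, 0.23 without the short-leaning libraries), Eif2ak2 (0.29 with the slope), Eef1akmt1 (-0.13 with both covariates), Mtrf1 (-0.02 with both) and Ddx3x. For Ddx3x the atrial value was -0.24 with the ratio and -0.25 in libraries with more Y-linked counts, where atrium 2 was the only hyperoxic atrium. In the ventricle they turned for Ddx3x (-0.05 with the ratio, -0.10 with both), and in the difference for Eif2ak3 (0.07 with the slope, 0.08 with both), Eif3a (0.42 with the slope) and Eef1akmt1 (-0.15 with the slope, -0.23 with both). Of the other members, Eif1b and Eif3f turned in the atrium with the slope (-0.44 and -0.37, both called lower), Eif1b in the difference (-0.53), and Eif1b (-0.31) and Eif3h (-0.15) between hyperoxic chambers, all called lower there. The cause was not tested. With the replicate number as a block, 44 members were called in the atrium (46.7% of all genes were), 7 in the ventricle (15.6%) and 44 in the difference (41.5%). Between hyperoxic chambers 40 were called (49.4%), and between room-air chambers 35 (57%). With blocks by oxygen level and number, 42 were called in the difference (37.3%), 34 between hyperoxic chambers (44.7%) and 35 between room-air chambers (54%). Same-numbered atria and ventricles correlated at 0.022 to 0.157 under hyperoxia and 0.035 to 0.319 in room air. Different-numbered ones correlated at -0.162 to 0.121 under hyperoxia and -0.224 to 0.131 in room air. Numbers were not taken as pairs because the labels do not state pairing, and these values do not settle whether mice were shared. Depth limits Eef1akmt3, Eif3j2 and Eif4ebp3, all under 1 CPM.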

Other observations

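Translation genes outside the initiation and elongation factors also moved in the hyperoxic atrium. The lists they were read from were chosen with earlier results of these data known. Of 7 termination and recycling genes tested, 4 rose (57.1%, against 19.7% of all genes): Abce1, which splits ribosomes after termination, averaged 154 ± 12.9 CPM in hyperoxic atria and 82.8 ± 4.49 CPM in room-air atria (log2 0.90), Etf1, the release factor that reads stop codons, 191 ± 16 CPM in hyperoxic atria and 112 ± 7.01 CPM in room-air atria (0.77), and its GTPase partner Gspt1 130 ± 9.31 CPM in hyperoxic atria and 88.6 ± 5.57 CPM in room-air atria (0.55), with Hbs1l at 0.62. In the ventricle Abce1 (0.37) and Gspt1 (0.27) were the 2 that rose (28.6%, against 5.64% of all genes). Of 9 genes that make hypusine on eIF5A or diphthamide on eEF2, 5 rose in hyperoxic atria (55.6%, against the same 19.7%). Dph5, which methylates the diphthamide precursor, averaged 16.9 ± 2.68 CPM in hyperoxic atria and 5.85 ± 0.256 CPM in room-air atria (1.53 ± 0.12, adjusted p = 2.8e-09 by edgeR). Dph2 (0.74), Dhps, the deoxyhypusine synthase (0.56), Dph3 (0.45) and Dph6 (0.35) followed. In the ventricle Dph1 alone was called (0.90, adjusted p = 0.031 by edgeR), and its call was lost without hyperoxic ventricle 5 or 6 or room-air ventricle 1, 2, 4 or 5 (0.80 to 0.94).

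Of 9 mitochondrial translation factors, 8 rose in hyperoxic atria (88.9%, against 19.7% of all genes; median log2 difference 0.34, against -0.06 over all genes), and their summed level was 381 to 467 CPM there and 312 to 342 CPM in room-air atria. The largest differences were those of Tsfm, the exchange factor of mitochondrial EF-Tu (0.58), and Mrrf, the ribosome recycling factor, at 47.1 ± 8.7 CPM in hyperoxic atria and 31.7 ± 2 CPM in room-air atria (0.57). In room air 7 of the 9 were lower in the atrium than in the ventricle (77.8%, against 26.3% of all genes), led by Tsfm (-0.89) and Tufm (-0.84). In the ventricle Gfm1, a mitochondrial elongation factor, was the 1 that rose (0.35).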
